A study of Mus musculus with 30 samples.

Results

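The genes of the thyrotropin receptor and its cyclic AMP (cAMP) pathway were followed through 30 mouse thyroid libraries. They are 10 of the 50686 genes counted, chosen by name from a list and matched by symbol: the receptor Tshr, the G protein subunits Gnas and Gnaq, the adenylyl cyclases Adcy3, Adcy6 and Adcy9, the phosphodiesterases Pde8b and Pde4d, the protein kinase A subunit Prkar1a, and the transcription factor Crem. All 10 passed the filter on low counts in each fit, with raw counts between 24 (Pde8b) and 8319 (Prkar1a) per library. The libraries were poly(A) RNA sequencing of C57BL/6 thyroid, with 10 groups of 3. In the FAD4T set (24 libraries), FAD4T males of 8 months stood beside WT males of 8 months, FAD4T males of 2 months beside WT males of 2 months, and the same 4 groups were sampled in females. In a separate ageing set (6 libraries), WT males of 18 months, numbered 1 to 3, stood beside WT males of 2 months, numbered 4 to 6. The labels give the genotype only as FAD4T, without saying which allele or transgene it carries, and give no treatment or litter. Nothing in them says that the libraries of a group came from separate animals beyond their being listed as separate samples, so p-values measure the spread between these samples.

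In the thyroid follicular cell, thyrotropin from the pituitary binds its receptor, which activates the stimulatory G protein and, less strongly, the Gq family. The stimulatory subunit switches on adenylyl cyclases, cAMP releases the catalytic subunits of protein kinase A from their regulatory subunits, and transcription factors of the CREB family turn on genes for iodide uptake and hormone synthesis. Phosphodiesterases break cAMP down and so limit the signal.

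Levels below are CPM (counts scaled to a common library size), scaled by TMM, a correction for the makeup of each library. A gene is said to have risen or fallen where edgeR's quasi-likelihood test gave a Benjamini-Hochberg adjusted p under 0.05 over all genes tested. Library totals over all genes ran between 14083958 and 20256049 counts. Thyroglobulin (Tg), the hormone precursor, took between 4.64% and 27.0% of each library's counts, and none of the 10 thyrocyte markers was at 0 in any library. A mean log2(CPM + 1) of thymocyte and T cell markers over 2, 3.24 to 5.25, was found in the FAD4T set in FAD4T males of 2 months 2 and 3, FAD4T females of 2 months 1 and 2 and FAD4T male of 8 months 1, and liver transcripts stood out in WT female of 2 months 1 (7.70). These 6 libraries of the FAD4T set are called the 6 outlying libraries below. In the ageing set 18-month library 2 also lay over that level, at 2.18. In bulk tissue, fewer cells of a type and less RNA per cell cannot be told apart.

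Compared per length, as TPM (length-scaled shares of the library, over the exons of each gene), Prkar1a had the highest median level over the 30 libraries, 278 TPM, followed by Adcy6 at 109 TPM. Adcy6, a calcium-inhibited adenylyl cyclase, was far above the other cyclases of the list, with 10.04 TPM for Adcy9 and 5.29 TPM for Adcy3. Gnaq had 39.6 TPM, Tshr 37.2 TPM, Gnas 24.4 TPM and Crem 13.7 TPM. The phosphodiesterases were lowest, with 1.81 TPM for Pde4d and 1.48 TPM for Pde8b. The spread between libraries was smallest for Prkar1a, whose highest CPM was 1.99 times its lowest, and widest for Pde4d at 19.4 times.

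Tshr encodes the thyrotropin receptor and lies on chromosome 12 (91400994 to 91540509, plus strand, GRCm38). At 18 months it was measured at 118, 102 and 145 CPM, against 32.2, 40.6 and 45.6 CPM in the 2-month WT males of the same set. Every 18-month library lay far above every 2-month one. Tshr rose by 1.59 on the log2 scale (SE 0.17, 3.01-fold, edgeR adjusted p = 0.000981). In the FAD4T set, the 8-month FAD4T males had 119, 71.8 and 136 CPM, against 47.3, 39.3 and 45.3 CPM in the 2-month FAD4T males. The 8-month WT males had 115, 157 and 92.5 CPM, against 41.3, 45.6 and 46.6 CPM in the 2-month WT males. In males of both genotypes, every 8-month library lay above every 2-month library. The females of 8 months were split: FAD4T females had 126, 56.2 and 58.1 CPM, against 35.7, 25.2 and 50.3 CPM at 2 months, and WT females had 105, 55.7 and 53.5 CPM, against 23.6, 85.4 and 48.1 CPM at 2 months. FAD4T females did not overlap between the ages, and WT females did.

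**Figure D1:**
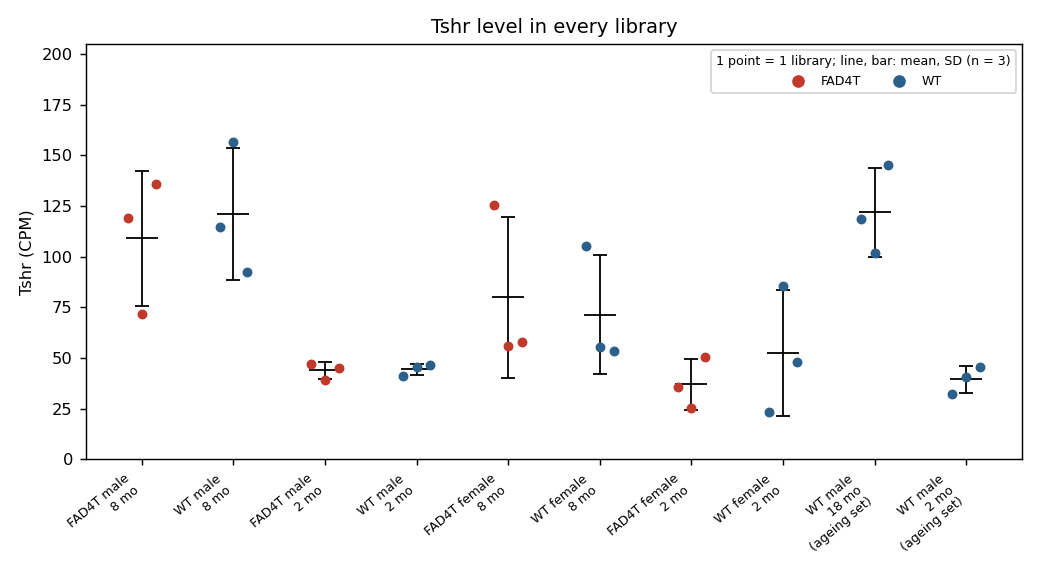
Tshr level (CPM, vertical axis) in each of the 30 libraries by group, with the mean and SD of 3 libraries; FAD4T in red and WT in blue. The 18-month males lie between 102 and 145 CPM, and the 2-month males of the same set between 32.2 and 45.6 CPM.

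Averaged over both genotypes and sexes, Tshr rose by 1.10 at 8 against 2 months (SE 0.20, 2.14-fold, edgeR adjusted p = 0.0011). Without the 6 outlying libraries the value was 0.84 and no longer called (adjusted p = 0.0911; over all alternatives between 1.35e-06 and 0.0911). Within single strata the change was 1.45 in WT males (adjusted p = 0.123), 1.34 in FAD4T males (0.0743), 1.13 in FAD4T females (0.0718) and 0.46 in WT females (0.852), all from edgeR, so no stratum alone passed. Called genes made up 0.692% of all genes in WT males (0.422% higher, 0.27% lower), 1.57% in FAD4T males (0.865% higher, 0.708% lower), 10.1% in FAD4T females (4.15% higher, 5.98% lower) and 0.254% in WT females (0.205% higher, 0.0487% lower). The difference between the male and the female change was 0.60 (SE 0.41, edgeR adjusted p = 0.945), with a 95% interval of -0.20 to 1.39, so the sexes were not shown to differ; 0.0162% of all genes were called there (0.0108% higher, 0.00541% lower). In the order of group means, Tshr ran from 122 CPM at 18 months through 121 CPM in 8-month WT males down to 37.1 CPM in 2-month FAD4T females, and each neighbouring pair in this order had overlapping libraries.

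By genotype, Tshr was 43.9 ± 4.15 CPM in FAD4T and 44.5 ± 2.82 CPM in WT males of 2 months (SD, n = 3 each), and 109 ± 33.4 CPM in FAD4T and 121 ± 32.5 CPM in WT males of 8 months. In females it was 37.1 ± 12.6 CPM in FAD4T and 52.3 ± 31.1 CPM in WT at 2 months, and 79.9 ± 39.5 CPM in FAD4T and 71.5 ± 29.3 CPM in WT at 8 months. The averaged change of FAD4T against WT was -0.12 (SE 0.20, 95% interval -0.52 to 0.28, edgeR adjusted p = 0.79).

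The genes whose log2(CPM + 1) was most like that of Tshr over the 30 libraries, among 11529 genes of at least 5 CPM on average, were Osbp (Pearson r = 0.90), Tekt1 (0.89), and Slc41a2, Lrrc8d, Cyp27b1, Sulf2, Ttc39b and Egfr (0.88 each). These points share libraries, ages and depth, and the values are a description. After the group means were subtracted, Tekt1 and Myo1e (0.88 each), Dapk1 and Rrbp1 (0.86 each) and Sulf2 (0.85) were closest. With Spearman's rank correlation, 3 of the first 8 stayed among the 8 closest.

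At 18 against 2 months in the ageing set, 7 of the 10 genes rose and 0 fell: Tshr, Gnaq, Adcy3, Adcy6, Adcy9, Prkar1a and Crem. Over all 16283 genes tested, 35.9% were called, that is 17.1% higher and 18.8% lower. The 10 genes had a median log2 change of 1.04, and all genes one of -0.01. The 18-month and 2-month libraries did not overlap for 8 of the 10 genes in the higher direction and for Pde8b in the lower one, where 26.3% of all genes were higher and 24.8% lower without overlap.

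Gnaq encodes the alpha subunit of Gq, which activates phospholipase C. It had 73.6, 71.9 and 82.8 CPM at 18 months, against 47.2, 51.5 and 47.4 CPM at 2 months, and rose by 0.61 (SE 0.11, edgeR adjusted p = 0.00391). Both groups were narrow. Over all alternatives its adjusted p ran between 0.000219 and 0.939. Gnas, which encodes the stimulatory alpha subunit and other products of an imprinted locus, had 136, 200 and 46.2 CPM at 18 months, against 78.1, 23.6 and 70.8 CPM at 2 months. The groups overlapped, since 1 library in each was far below the others, and the change of 1.12 (SE 0.75) had an edgeR adjusted p of 0.311.

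All 3 adenylyl cyclases, the enzymes that make cAMP, rose. Adcy3 had 14.9, 13.6 and 12.4 CPM at 18 months, against 7.51, 5.88 and 4.55 CPM at 2 months, a change of 1.15 (SE 0.22, edgeR adjusted p = 0.00532). Adcy6 had 229, 230 and 288 CPM at 18 months, against 164, 144 and 160.0 CPM at 2 months, a change of 0.64 (SE 0.14, edgeR adjusted p = 0.00778). Adcy9 had 19.1, 33.4 and 32.9 CPM at 18 months, against 9.86, 8.94 and 4.75 CPM at 2 months, a change of 1.82 (SE 0.32, 3.53-fold, edgeR adjusted p = 0.00494). Every 18-month library was above every 2-month library for each of these enzymes.

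The cAMP-degrading phosphodiesterases did not pass. Pde4d had 15.4, 47.5 and 11.6 CPM at 18 months, against 5.27, 3.61 and 7.40 CPM at 2 months, a change of 2.16 (SE 0.66) with an edgeR adjusted p of 0.0555. The second 18-month library stood well above the other 2, and without it the change was 1.3 (edgeR adjusted p = 0.0204). Over all alternatives the adjusted p ran between 0.00104 and 0.256. That library had the highest thymocyte (2.18), skeletal muscle (10.86) and parathyroid (9.72) marker levels of the 3. With the muscle level as a covariate Pde4d was called (2.20, edgeR adjusted p = 0.00104), as with the parathyroid level (1.87, 0.0203) and the thyrocyte level (1.39, 0.0184). Against the 2-month WT males of the FAD4T set it was not called (2.05, edgeR adjusted p = 0.256). The part of the thymocyte transcripts was not tested. Pde8b had 1.31, 1.84 and 2.14 CPM at 18 months, against 2.75, 2.43 and 2.24 CPM at 2 months, a change of -0.52 (SE 0.34, edgeR adjusted p = 0.267). It was the only member with a negative value.

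Prkar1a encodes the type I alpha regulatory subunit that holds protein kinase A inactive until cAMP binds. It had 455, 424 and 430 CPM at 18 months, against 334, 311 and 343 CPM at 2 months, and rose by 0.37 (SE 0.13, edgeR adjusted p = 0.0468). Crem encodes activators and repressors of the CREB family, among them the inducible repressor ICER. It had 45.6, 49.3 and 21.8 CPM at 18 months, against 18.5, 18.8 and 21.5 CPM at 2 months, and rose by 0.95 (SE 0.30, edgeR adjusted p = 0.0429). The third 18-month library stood barely above the highest 2-month one. Prkar1a was no longer called when any 1 of the 6 libraries was left out. Crem was called only without 18-month library 3, and its edgeR adjusted p was 0.0882 to 0.13 without each of the others. With the thyrocyte marker level as a covariate neither gene was called (Crem 0.63, edgeR adjusted p = 0.0848; Prkar1a 0.36, adjusted p = 0.0936); over all alternatives the adjusted p ran between 0.00221 and 0.177 for Crem and between 0.00724 and 0.467 for Prkar1a.

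The FAD4T set holds another 3 WT males of 2 months, numbered 1 to 3, with the same strain, sex, age and genotype labels as numbers 4 to 6. In a comparison added after the data were seen, 4063 of 18799 genes (21.6%) differed between numbers 4 to 6 and numbers 1 to 3, 10.2% higher and 11.5% lower, by edgeR on all 30 libraries. Of the 10 genes, 1 was called: Adcy6, with 164, 144 and 160.0 CPM in numbers 4 to 6, against 232, 232 and 218 CPM in numbers 1 to 3 (log2 change -0.54, SE 0.15, adjusted p = 0.0119). That call was lost without number 1, 2 or 5. Gnaq and Adcy6 were lower without overlap, beside 20% of all genes, and 0 of the 10 were higher, beside 18.8%. The other values, all negative, included -0.69 for Gnaq (adjusted p = 0.0797), -0.67 for Adcy3 (0.0837), -1.01 for Adcy9 (0.198) and -0.17 for Tshr (0.785), from edgeR. Adipocyte markers had a mean log2(CPM + 1) of 6.74 to 7.07 in numbers 4 to 6 and 5.36 to 6.15 in numbers 1 to 3, and 3.90 to 5.41 at 18 months. Skeletal muscle markers ran at 8.56 to 11.27 in numbers 4 to 6 and 1.32 to 8.01 in numbers 1 to 3, with all 10 higher and 1 called (median log2 change 3.43). All 6 liver markers were higher with 0 called (median 3.40), 2 of 5 macrophage markers rose and 2 of 5 fibroblast markers fell. With the muscle level as a covariate Adcy6 stayed called (-0.59, edgeR adjusted p = 0.0262; over all alternatives between 0.0036 and 0.0757). The part of the other markers was not tested.

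With numbers 1 to 3 in place of 4 to 6, only Tshr of the 10 genes was called at 18 months, with a change of 1.47 (edgeR adjusted p = 0.00351; over all alternatives between 4.66e-20 and 0.00922). Over all genes, 5.28% were called in that fit (859 of 16257), against 35.9% with numbers 4 to 6. Gnaq then had -0.03, Adcy6 0.15, Adcy3 0.54, Adcy9 0.87, Prkar1a 0.20 and Crem 0.72, none of them past the threshold. Against all 6 of the 2-month WT males, 3 genes were called, Tshr (1.53), Pde4d (2.10) and Crem (0.83), beside 8.41% of all genes (1417 of 16840). What the labels leave out about the 2 sets cannot be told apart from age here. The rise of Gnaq and of the 3 cyclases depended on which 2-month males stood beside the 18-month ones, while that of Tshr held with either.

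**Figure D2:**
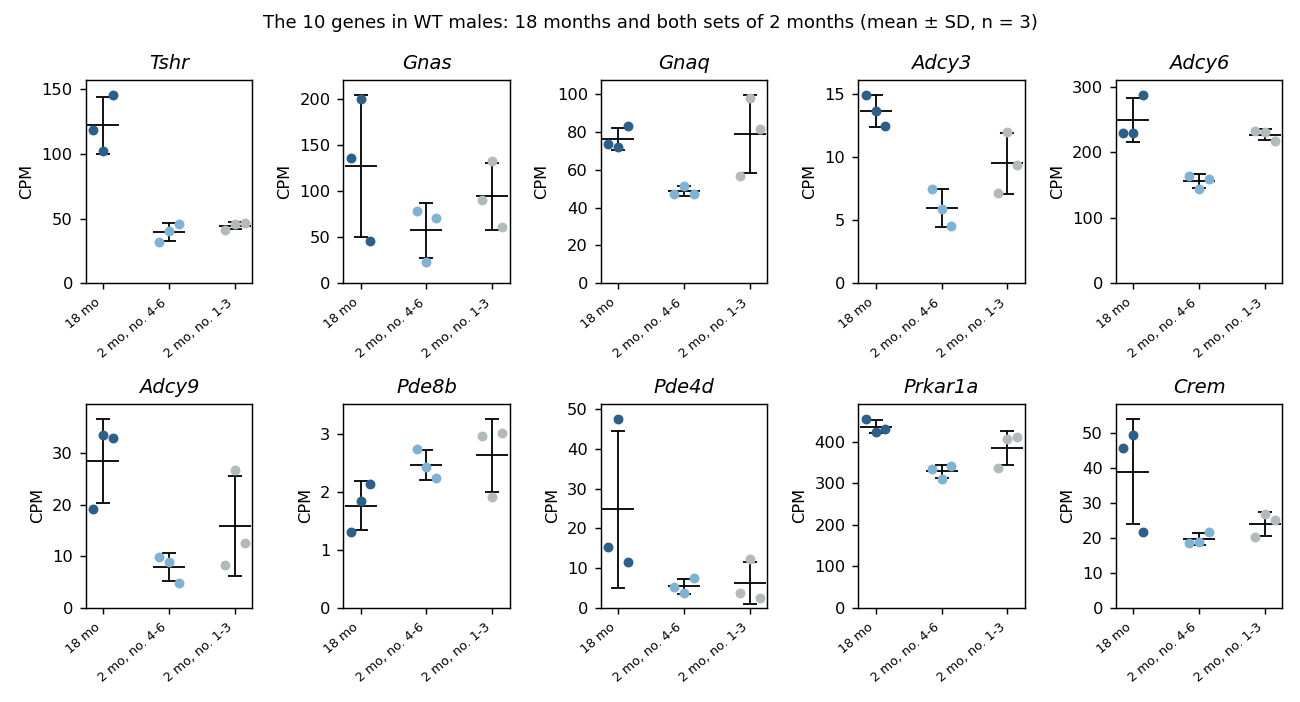
Level (CPM) of each of the 10 genes in WT males of 18 months, of 2 months numbered 4 to 6 (ageing set) and of 2 months numbered 1 to 3 (FAD4T set); points are libraries, lines the mean and bars the SD of 3. Tshr at 18 months (102 to 145 CPM) lies above both 2-month sets, whereas Gnaq at 18 months (71.9 to 82.8 CPM) lies within the range of numbers 1 to 3.

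Between 8 and 2 months in the FAD4T set, 2 of the 10 genes rose (Tshr and Prkar1a) and 1 fell (Adcy6), averaged over both genotypes and sexes. Of 18493 genes tested, 32.6% were called, that is 15.8% higher and 16.8% lower. The median log2 change was 0.30 over the 10 genes and -0.01 over all genes. Liver markers moved with this comparison: all 6 rose, and as a mean log2(CPM + 1) they spanned 3.97 to 5.48 at 8 months (12 libraries), against 0.16 to 1.46 at 2 months with the exception of WT female 1 (7.70). Of the lung and airway markers 3 of 4 rose, of the thymocyte and T cell markers 3 of 9 fell, and of the endothelium markers 3 of 5 fell. Of the thyrocyte markers themselves 5 of 10 rose and 2 fell, with a median log2 change of 0.34; their mean level was 8.65 to 9.55 at 8 months, against 8.02 to 9.21 at 2 months. With the mean level of Pax8, Nkx2-1, Foxe1 and Hhex as a covariate, Tshr changed by 1.0 (edgeR adjusted p = 0.000929). For the thymocyte markers the only test was leaving out the 6 outlying libraries. That cannot test the liver part, since the liver levels of the remaining libraries still separate the 2 ages. The part of the lung and airway and of the endothelium markers was not tested.

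Adcy6 went the other way from Tshr. FAD4T males had 179, 182 and 174 CPM at 8 months, against 214, 274 and 248 CPM at 2 months. WT males had 166, 168 and 148 CPM at 8 months, against 232, 232 and 218 CPM at 2 months. FAD4T females had 209, 194 and 203 CPM at 8 months, against 326, 289 and 216 CPM at 2 months. In these 3 strata each 8-month library was below each 2-month one. WT females had 153, 139 and 190 CPM at 8 months, against 210, 177 and 242 CPM at 2 months, with overlap. The averaged change was -0.43 (SE 0.08, edgeR adjusted p = 0.000763), and it was still called without the 6 outlying libraries at -0.30 (adjusted p = 0.0407; over all alternatives between 4.76e-07 and 0.0407). Adcy6 therefore rose in the 18-month comparison and fell in the 8-month one, and those use different libraries. The 18-month rise was against numbers 4 to 6 of the 2-month WT males, at 144 to 164 CPM. The 8-month WT males were at 148 to 168 CPM. Against numbers 1 to 3, which the 8-month fall in WT males used, the 18-month change was 0.15 (edgeR adjusted p = 0.579). The 8-month libraries were not compared with numbers 4 to 6, and the difference in direction was not tested.

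Prkar1a averaged 380 ± 9.98 CPM in 8-month and 297 ± 45.0 CPM in 2-month FAD4T males, and 418 ± 26.5 CPM in 8-month and 281 ± 63.6 CPM in 2-month FAD4T females (SD, n = 3 each). In WT males it averaged 375 ± 13.3 CPM at 8 months and 385 ± 41.6 CPM at 2 months, and in WT females 398 ± 25.9 CPM at 8 months and 367 ± 52.0 CPM at 2 months. The averaged change was 0.27 (SE 0.08, edgeR adjusted p = 0.017), and within strata only that of FAD4T females passed (0.60, adjusted p = 0.0328, where 10.1% of all genes were called). Without the 6 outlying libraries, 4 of which are 2-month FAD4T libraries, the averaged change of Prkar1a was 0.10 (adjusted p = 0.534; over all alternatives between 0.00185 and 0.534). The call in FAD4T females was lost without any 1 of 5 of its 6 libraries, FAD4T female of 2 months 3 being the exception.

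**Figure D3:**
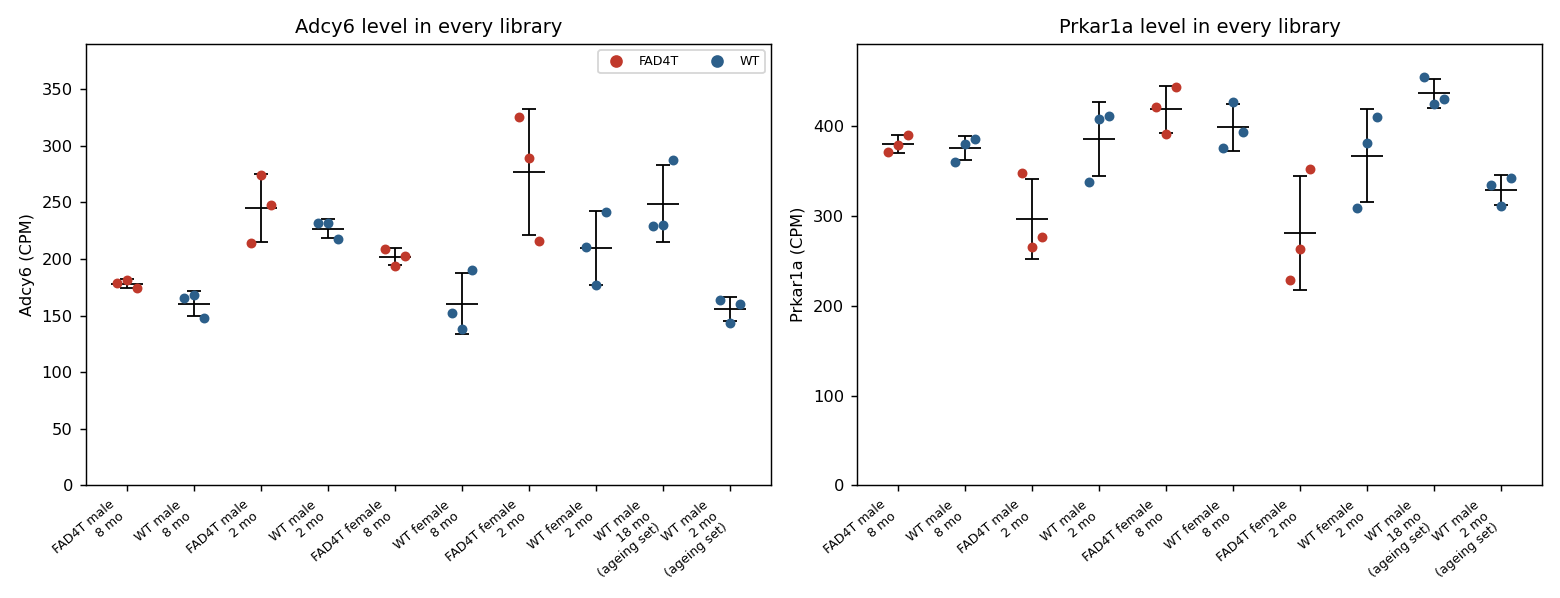
Levels (CPM) of Adcy6 (left panel) and Prkar1a (right panel) in each of the 30 libraries by group, with the mean and SD of 3; FAD4T in red and WT in blue. Adcy6 is at 139 to 209 CPM in the 8-month libraries, and Prkar1a is lowest in 2-month FAD4T females at 229 CPM.

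Read by separation alone, FAD4T males had 5 of the 10 genes higher at 8 months without overlap (Tshr, Gnaq, Adcy3, Adcy9 and Prkar1a) and 2 lower (Adcy6 and Pde8b), beside 15.9% and 16.2% of all genes. FAD4T females had 3 higher (Tshr, Adcy9 and Prkar1a) and 1 lower (Adcy6), beside 14.6% and 16.2%. WT males had 1 higher (Tshr) and 1 lower (Adcy6), beside 11.2% and 9.99%, and WT females 0 and 0, beside 5.3% and 7.09%. The other 7 genes did not pass at 8 against 2 months. Their edgeR values ran from -0.41 for Pde8b (adjusted p = 0.0636) to 0.66 for Adcy9 (0.0818), with 0.32 for Gnaq, 0.27 for Adcy3, 0.35 for Gnas, 0.36 for Pde4d and 0.16 for Crem. Adcy9 in FAD4T males was at 17.1, 13.3 and 18.2 CPM at 8 months, against 12.1, 4.92 and 3.41 CPM at 2 months, and Gnaq at 71.1, 87.3 and 86.5 CPM at 8 months, against 70.6, 39.1 and 39.3 CPM at 2 months. The low 2-month values of both genes were in the FAD4T libraries 2 and 3 that hold thymocyte transcripts. Without the 6 outlying libraries the averaged change was 0.11 for Adcy9 and -0.01 for Gnaq, and 1 of the 10 genes was called, Adcy6, beside 7.02% of all genes (1341 of 19102) against 32.6% with all libraries. The count of 3 became 5 without FAD4T male of 2 months 1 and 6 without WT male of 2 months 2 or FAD4T female of 2 months 3. The share of all genes called in those fits is not given.

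Between FAD4T and WT, edgeR called 0 of the 10 genes, averaged or in any of the 4 strata of sex and age. Averaged, 0% of the 18493 genes were called, 2855 genes had an unadjusted p under 0.05, and 1 of the 10 did (Adcy6). DESeq2 called 303 genes (1.66%), Adcy6 among them. At 8 months 0% of genes were called in males and 0.0216% in females, and at 2 months 0% in either sex. At an unadjusted p under 0.05 there were 2 of the 10 genes in 2-month males, 2 in 2-month females, 0 in 8-month males and 1 in 8-month females. Over all 18493 genes those numbers were 2679, 3087, 335 and 862. DESeq2 called 0 of the 10 in each stratum. Over all genes it called 0.523% in 2-month males, 1.56% in 2-month females, 0% in 8-month males and 0.388% in 8-month females.

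Adcy6 was 245 ± 30.0 CPM in FAD4T and 227 ± 8.21 CPM in WT males of 2 months, and 178 ± 3.97 CPM in FAD4T and 161 ± 11.0 CPM in WT males of 8 months (SD, n = 3 each). In females it was 277 ± 55.9 CPM in FAD4T and 210 ± 32.5 CPM in WT at 2 months, and 202 ± 7.63 CPM in FAD4T and 161 ± 26.8 CPM in WT at 8 months. The mean was higher in FAD4T in all 4 strata, and the libraries did not overlap at 8 months in males, where 4.35% of all genes were higher without overlap, nor in females, where 5.61% were. At 2 months the outlying FAD4T libraries had 274 and 248 CPM in males and 326 and 289 CPM in females. The remaining FAD4T male had 214 CPM, against 218 to 232 CPM in WT. The remaining FAD4T female had 216 CPM, against 177 to 242 CPM in WT. The averaged change was 0.26 (SE 0.08, 95% interval 0.10 to 0.41, edgeR adjusted p = 0.193, over all alternatives between 0.0298 and 1), which did not pass. Adcy3 in 8-month females separated by less than the printed precision, with 15.1, 12.8 and 17.5 CPM in FAD4T and 12.8, 9.10 and 11.6 CPM in WT. Pde8b did not overlap in 2-month males, with 3.35, 4.64 and 4.42 CPM in FAD4T and 2.97, 1.91 and 3.03 CPM in WT, where 6.11% of all genes were higher without overlap. None of the 10 genes was lower in FAD4T without overlap in any stratum, where 6.07% of all genes were in 2-month males, 4.46% in 2-month females, 6.43% in 8-month males and 7.24% in 8-month females, and none was higher in 2-month females, where 5.33% were.

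Adcy9 had the most negative averaged value, -0.43 (SE 0.28, 95% interval -0.98 to 0.13, edgeR adjusted p = 0.449), and Prkar1a was at -0.16 (SE 0.08, adjusted p = 0.343). In the outlying 2-month FAD4T libraries Adcy9 was at 4.92 and 3.41 CPM in males and 7.13 and 5.02 CPM in females. The remaining 2-month FAD4T male had 12.1 CPM and the remaining female 18.8 CPM. Prkar1a was at 265 and 276 CPM and at 229 and 263 CPM in the outlying ones, against 348 and 352 CPM in the remaining ones. The change of the FAD4T effect between 8 and 2 months was largest for Adcy9 (1.21, SE 0.57, edgeR adjusted p = 0.315). There 0 of the 10 genes and 0% of all genes were called by edgeR. At an unadjusted p under 0.05 there were 3 of the 10 genes, beside 2895 of all 18493 genes. None of the 10 was called for a FAD4T effect that differed between males and females by edgeR or DESeq2. Over all genes edgeR called 0% there and DESeq2 0.119%. In edgeR 0 of the 10 had an unadjusted p under 0.05, beside 764 of all 18493 genes.

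Between males and females 0 of the 10 genes were called by edgeR or DESeq2, averaged over genotypes and ages, where edgeR called 1.88% of all genes (0.741% higher and 1.14% lower in males). Adcy3 had the lowest p, with a change of -0.40 in males (SE 0.14, edgeR adjusted p = 0.194). It was the 1 gene of the 10 at an unadjusted p under 0.05, beside 2422 of all 18493 genes. In WT alone, 0 of the 10 were called at 2 months (0.0757% of all genes) or at 8 months (0.27%), and 0 separated without overlap, beside 3.46% of genes higher and 4.43% lower at 2 months and 6.79% and 5.56% at 8 months. Tshr at 8 months was 121 ± 32.5 CPM in males and 71.5 ± 29.3 CPM in females (SD, n = 3 each; log2 change 0.75, edgeR adjusted p = 1).

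**Figure D4:**
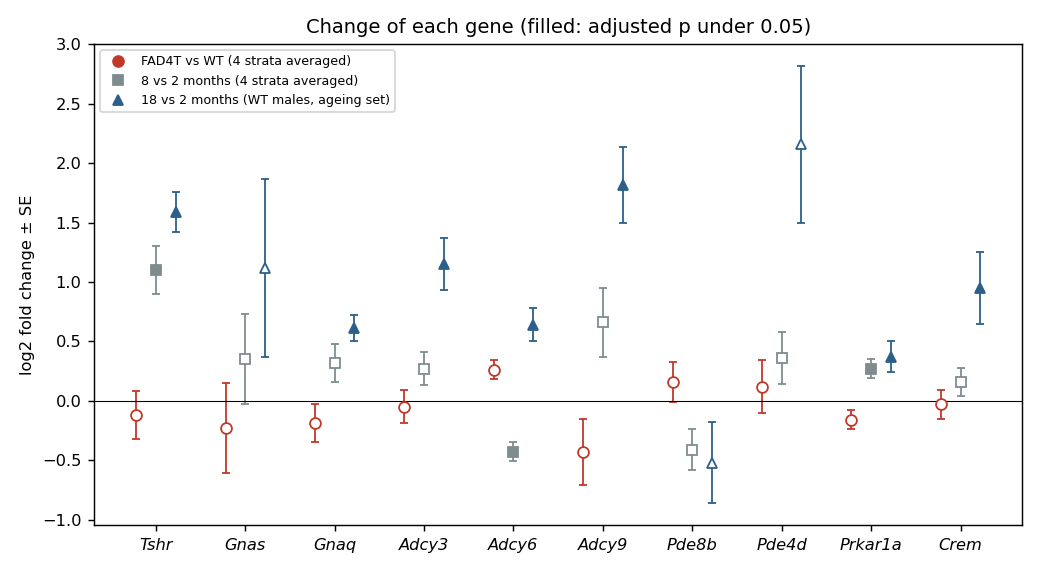
Fitted log2 change (± SE) of each of the 10 genes for FAD4T against WT and 8 against 2 months, each averaged over 4 strata, and for 18 against 2 months in the ageing set; filled symbols passed an adjusted p of 0.05. Tshr is at 1.59 at 18 months and at 1.10 at 8 months, and no symbol for FAD4T is filled.

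Gnas varied more within groups than between them, and it went with transcripts of the parathyroid, a gland that lies on the thyroid. Gcm2, the transcription factor that specifies parathyroid cells, was at 0 to 1.47 CPM in 9 libraries and at 45.8 to 286 CPM in the other 21. Pth, the parathyroid hormone gene, was at 5.26 to 159 CPM in the 9 and at 4817 to 36180 CPM in the 21. In the 9 libraries Gnas was at 23.6 to 47.7 CPM (median 39.8), and in the 21 at 48.0 to 202 CPM (median 101). The 9 were spread over the groups: FAD4T females of 2 months 1, WT females of 2 months 2, FAD4T males of 8 months 3, WT males of 8 months 1 and 3, FAD4T females of 8 months 1, WT females of 8 months 1, 18-month males 3 and 2-month males 5.

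Within the 21 libraries, Gnas was positively correlated with the mean log2(CPM + 1) of Pth, Gcm2 and Casr (Pearson r = 0.80, Spearman rho = 0.81, permutation p = 2e-05, the smallest that 100000 permutations can give; adjusted p = 0.0002 over 10 genes), and r was 0.81 without the 2 farthest libraries. Crem did so too (r = 0.68, rho = 0.74, permutation p = 0.001, adjusted p = 0.005), with r of 0.76 without the 2 farthest. The other 8 genes did not pass (adjusted p from 0.15 for Pde4d upward; r = 0.23 for Tshr). These p-values pool both sets and all 3 ages. With group means subtracted and libraries permuted within groups, in the 20 libraries of the 9 groups that keep more than 1, r was 0.68 for Gnas (rho = 0.68, exact permutation p = 0.046, adjusted p = 0.15 over 10 genes) and 0.64 for Crem (rho = 0.67, p = 0.012, adjusted p = 0.12). Without the 2 farthest libraries these were 0.59 and 0.55, so within groups both kept a positive r and neither passed the correction. Casr, the calcium-sensing receptor, was itself among the 4 genes most like Gnas over the 30 libraries (r = 0.94), after Tbc1d1 (0.96), Myh10 and Arfgef2 (0.95 each).

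With the parathyroid level as a covariate, an alternative added after the data were seen, Gnas was called at 18 against 2 months (0.78, edgeR adjusted p = 0.00612) and at 8 against 2 months (0.52, adjusted p = 0.0125); over the alternatives its adjusted p ran to 0.698 and 0.911. Among the 9 libraries low in parathyroid transcripts, Gnas was at 46.2 CPM in the 1 of 18 months, 39.3 to 47.7 CPM in the 5 of 8 months and 23.6 to 32.1 CPM in the 3 of 2 months. Crem in that 18-month library was at 21.8 CPM, and at 45.6 and 49.3 CPM in the other two of the age. Tshr had its highest 18-month value, 145 CPM, in the same library, and in 8-month females the 2 libraries low in parathyroid transcripts were the 2 high in Tshr, with 126 and 105 CPM. In 8-month WT males it was the other way round: the library rich in parathyroid transcripts had the highest Tshr of all, 157 CPM, against 115 and 92.5 CPM in those low in them. In 8-month FAD4T males the library low in them had 136 CPM, against 119 and 71.8 CPM in those rich in them. Over all 8-month libraries the median Tshr was 58.1 CPM in the 7 rich in parathyroid transcripts and 115 CPM in the 5 low in them. At 2 months it was 45.4 CPM in the 12 libraries rich in parathyroid transcripts and 40.6 CPM in the 3 low in them. The part of the parathyroid in the Tshr and Crem values was not tested beyond this covariate, under which Tshr changed by 1.61 at 18 months and 1.01 at 8 months, and Crem by 0.76 (edgeR adjusted p = 0.024) at 18 months and 0.20 (0.175) at 8 months.

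**Figure D5:**
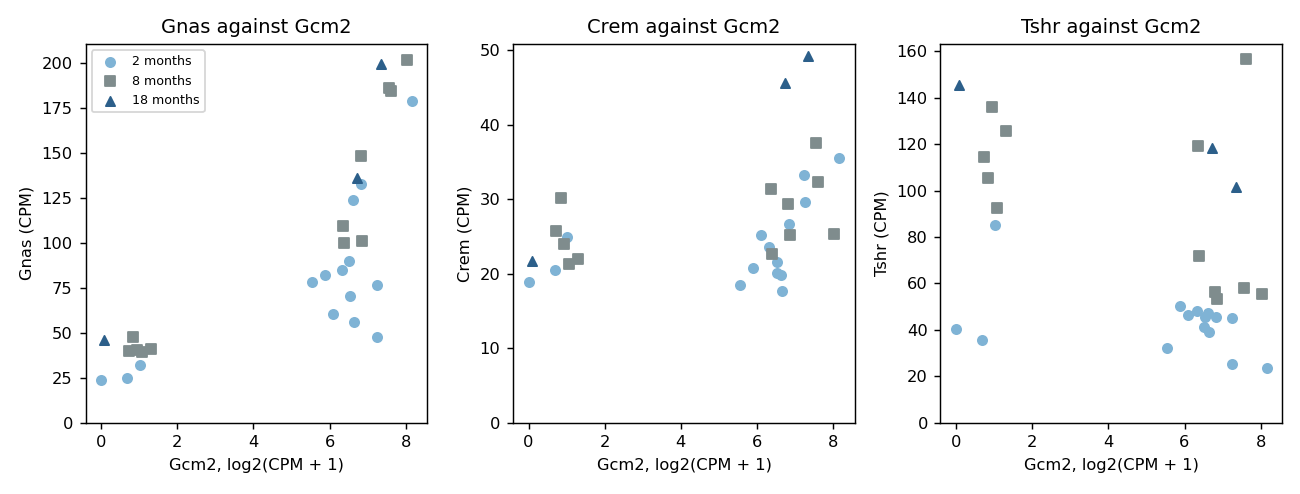
Levels (CPM) of Gnas, Crem and Tshr against Gcm2, log2(CPM + 1), in the 30 libraries by age; each point is a library. Gnas is at most 47.7 CPM in the 9 libraries at the left and reaches 202 CPM at the right.

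Over the 30 libraries, Gnaq and Adcy9 were the pair most alike (r = 0.89), followed by Adcy3 and Adcy9 (0.83), Adcy9 and Prkar1a (0.80), Gnaq and Prkar1a (0.79) and Gnaq and Adcy3 (0.77). After group means were subtracted these were 0.87, 0.79, 0.62, 0.76 and 0.76. Pde8b ran against them, most of all against Prkar1a (-0.76). The libraries share depth and cell makeup, and these correlations are given without a test.

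The promoters of the 4 genes that went together are shown because they can be read for the cAMP response element, the CREB site TGACGTCA. The RefSeq windows hold 250 bases before and 50 after the transcript start (GRCm38.p6); 7 of the 10 genes matched one, and Tshr, Adcy6 and Crem did not. They are chr19:16132434-16132733 (plus strand) for Gnaq, chr12:4133147-4133446 (plus) for Adcy3, chr16:4420449-4420748 (minus) for Adcy9 and chr11:109649113-109649412 (plus) for Prkar1a. Capitals mark the shorter motif TGACG or its reverse complement CGTCA.
Gnaq: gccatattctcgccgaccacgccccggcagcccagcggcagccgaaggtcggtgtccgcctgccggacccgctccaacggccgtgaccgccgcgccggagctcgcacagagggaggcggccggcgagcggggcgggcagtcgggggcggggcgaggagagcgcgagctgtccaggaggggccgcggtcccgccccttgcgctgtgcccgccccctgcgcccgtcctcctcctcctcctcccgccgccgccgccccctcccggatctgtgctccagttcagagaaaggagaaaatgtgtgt
Adcy3: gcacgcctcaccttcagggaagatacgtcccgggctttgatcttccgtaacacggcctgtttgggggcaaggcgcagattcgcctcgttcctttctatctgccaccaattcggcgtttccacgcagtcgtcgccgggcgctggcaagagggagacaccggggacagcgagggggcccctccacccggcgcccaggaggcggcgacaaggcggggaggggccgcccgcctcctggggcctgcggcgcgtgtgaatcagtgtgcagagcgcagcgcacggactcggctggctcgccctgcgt
Adcy9: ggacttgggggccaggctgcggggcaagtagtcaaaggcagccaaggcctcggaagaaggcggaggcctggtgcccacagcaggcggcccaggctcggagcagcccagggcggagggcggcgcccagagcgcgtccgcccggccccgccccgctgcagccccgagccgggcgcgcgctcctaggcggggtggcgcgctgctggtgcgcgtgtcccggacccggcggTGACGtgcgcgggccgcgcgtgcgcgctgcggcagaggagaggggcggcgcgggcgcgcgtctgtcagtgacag
Prkar1a: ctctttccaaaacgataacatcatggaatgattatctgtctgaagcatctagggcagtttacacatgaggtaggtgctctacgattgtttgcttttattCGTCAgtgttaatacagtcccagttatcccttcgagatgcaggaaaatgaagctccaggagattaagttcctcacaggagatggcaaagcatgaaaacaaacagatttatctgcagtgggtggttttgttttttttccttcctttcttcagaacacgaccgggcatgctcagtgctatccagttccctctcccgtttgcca
None of the 7 windows held the whole site, which 1.80% of 32544 mouse promoter windows of the same length held on either strand. The shorter motif was in Adcy9, starting 24 bases before the transcript start, and in Prkar1a, 151 bases before it, and in 20.9% of all windows. The Gnaq window was 75.0% G and C, that of Adcy9 78.3%, that of Adcy3 68.7% and that of Prkar1a 43.3%. A gene with several starts has 1 window here, and these letters say nothing of binding.

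The wider pathway was followed in 11 lists of 90 genes, of which 82 were tested in the ageing set and 84 in the FAD4T set. At 18 against 2 months 16 of the 82 rose (19.5%) and 9 fell (11%), beside 17.1% and 18.8% of all genes. Among the other adenylyl cyclases 2 of 6 rose, Adcy7 by 0.78. Among the other cAMP phosphodiesterases 3 of 12 rose, led by Pde10a (2.07) and Pde1c (1.15), and 1 fell, Pde3b, by 0.51. Of the other protein kinase A genes 4 of 11 rose and 3 fell: Prkar2a, a type II regulatory subunit, rose by 0.92, and the catalytic subunits differed, with Prkacb at 0.45 and Prkaca at -0.53. Creb1 (0.64) and the coactivator Ep300 (0.90) rose. Of the early cAMP response genes Nr4a3 rose by 2.41 and the clock gene Per1 fell by 0.83, with the other 6 of 8 not called. Rgs2, which shortens Gq signalling, fell by 1.91, and Duox2, the oxidase that makes hydrogen peroxide for hormone synthesis, rose by 1.04, the 1 of 7 thyrotropin target genes called. All named values have an edgeR adjusted p of 0.00124 to 0.043. Over all genes, 10.2% were higher and 11.5% lower in the 2-month WT males numbered 4 to 6 than in those numbered 1 to 3. Of 84 genes of these lists, 14 were called there, 5 higher and 9 lower. Among them Creb1 (-0.73), Ep300 (-0.65), Pde10a (-1.21) and Prkaca (0.69) had the opposite sign to their 18-month change, and both comparisons share numbers 4 to 6. For these lists, numbers 1 to 3 in place of 4 to 6 were also added after the data were seen. Of 83 genes of the lists, 3 then rose and 2 fell at 18 months, where 5.28% of all genes were called. Of the genes named here Rgs2 (-1.28) and Duox2 (0.78) were still called.

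At 8 against 2 months 20 of 84 rose (23.8%) and 16 fell (19%), beside 15.8% and 16.8% of all genes. Of the 8 genes that thyrotropin regulates in thyrocytes 6 rose and 1 fell; the sodium-iodide symporter Slc5a5 changed by 0.94, the deiodinase Dio1 by 0.56, Duox2 by 0.34 and its maturation factor Duoxa2 by -0.27. Of the 11 other protein kinase A genes 5 rose and 0 fell, among them Prkar1b (0.42), Prkacb (0.35), Prkaca (0.24) and the anchoring protein Akap1 (0.20). Of the 8 genes that limit receptor or G protein signalling 0 rose and 5 fell. Among them Rgs4 was at -0.61, the receptor kinases Grk3 at -0.47 and Grk2 at -0.21, and the arrestin Arrb2 at -0.43. Arrb2 was at 15.9 to 22.9 CPM at 8 months, against 14.2 to 23.2 CPM in the 2-month libraries that are not outlying and 31.2 to 49.9 CPM in the 5 that are. Without the 6 outlying libraries Arrb2 was at 0.08, Grk2 at -0.04 and Grk3 at -0.18, none called, while Rgs4 was still called at -0.65. Rgs4 also differed by -0.99 between 2-month WT males 4 to 6 and 1 to 3 (edgeR adjusted p = 0.000882), a larger change at the same age. Among the other cyclases Adcy7 (-0.73) and Adcy4 (-0.52) fell and Adcy5 (0.37) rose. Of the other phosphodiesterases 4 of 13 rose, Pde1a by 0.91, Pde1c by 0.65 and Pde8a by 0.45 among them, and 2 fell, Pde7a by 0.43. The named values have an edgeR adjusted p of 0.000108 to 0.0432. None of the 8 early cAMP response genes was called. For these lists, leaving out the 6 outlying libraries was an alternative added after the data were seen. Of 85 genes of the lists, 3 then rose and 3 fell, where 7.02% of all genes were called. The named genes still called were Adcy7 (-0.43), Pde1c (0.71), Pde8a (0.50), Pde1a (0.55) and Rgs4 (-0.65). Slc5a5 (0.73, edgeR adjusted p = 0.369), Dio1 and Duox2 were not called. The subunits of thyrotropin and thyrostimulin (Tshb, Cga, Gpha2 and Gphb5) did not pass the filter on low counts, and none of the 84 genes was called between FAD4T and WT.

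Since counting used no strand, reads where a member overlaps another gene may have been mixed with that gene's reads or left uncounted. TPM used the full exonic length all the same. Genes on the other strand cover 22.1% of the exonic length of Adcy3 (Cenpo), 22.0% of Gnas (Gm20721 and Nespas), 9.99% of Adcy6 (Gm29331) and 1.75% of Crem (Gm6225), and 0% of the other 6 genes.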

How the data were processed

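Thyroid RNA of 30 libraries was sequenced as poly(A), dUTP-stranded, paired-end libraries, per the labels' protocols. The authors deposited raw read counts per gene for each library, made with featureCounts 1.6.0 on Ensembl release 88 (GRCm38) with no strand option, per the file headers. HISAT2 2.0.4, cutadapt 1.9 and StringTie 1.3.4d are listed with the build GRCm39, per the submitters' processing notes; coordinates here follow the headers. Gene symbols were matched for 50376 of 50686 identifiers.

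Groups were taken from the labels. Counts were tested with edgeR 4.0.16 (R 4.3.3): TMM scaling, filterByExpr with a minimum count of 10, a robust quasi-likelihood fit with a mean per group, and a Benjamini-Hochberg threshold of 0.05. The FAD4T set (24 libraries, 16 residual degrees of freedom) and the ageing set (6 libraries, 4 residual degrees of freedom) were fitted apart. The 2 sets of 2-month WT males were compared in a fit of all 30 libraries. CPM are counts over TMM-scaled library size; TPM used the exonic length of each gene; logs of CPM had a pseudocount of 1. DESeq2 1.42.0, other scalings, no filter, covariates (thyrocyte, muscle and parathyroid level), a replicate block and leaving out each library were alternatives. The parathyroid covariate, the correlations within groups, the wider lists without the outlying libraries or with the other 2-month males, and the comparison of 2-month sets were added after the data were seen. Fits were tested on simulated data. Permutation p-values used 100000 resamples, two-sided.

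The genes and lists were chosen with earlier results of these data known. Named genes are the 10 in every group, up to 4 called genes of smallest p in each wider list with a mean of at least 1 CPM, and the genes of highest correlation. Depth of 14083958 to 20256049 counts gave Pde8b as few as 24 counts, so its values are the least precise. No 2 libraries held identical counts.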

Additional observations from a re-analysis of the deposited data

How the results depend on the processing

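Of the recomputed counts of called genes among the 10, 349 equalled the reported count or stayed within 1.5 times it, and 35 did not. Most comparisons had a reported count of 0, where only a recomputed 0 was taken as kept. Of the recomputed log2 changes, 699 kept direction and side of the threshold, 37 gained a call, 40 lost one and 4 changed sign. A change of the same direction without an adjusted p was taken as kept. DESeq2 called 1 of the 10 genes for FAD4T against WT, 2 for 8 against 2 months in WT males, 2 in FAD4T males and 3 in FAD4T females. In the same order, DESeq2 called 1.66%, 2.59%, 9.06% and 19.9% of all genes. One fit of all 30 libraries called 1 in FAD4T males and 2 in FAD4T females. The 2 groups alone gave 1 in WT males, 1 in FAD4T males, 0 in FAD4T females and 2 between the 2-month sets. In FAD4T females no filter gave 0, the muscle covariate 0, leaving out the 6 outlying libraries 0, and the thyrocyte and parathyroid covariates 2 each; in WT males the thyrocyte covariate gave 1. Averaged over strata, 8 against 2 months had 1 call without the 6 outlying libraries, beside 7.02% of all genes. At 18 months, 1 was called against 2-month males 1 to 3 and 3 against 1 to 6, beside 5.28% and 8.41% of all genes. For the remaining alternatives, and for leaving out 1 library, the share of all genes called is not given.

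Leaving out 1 library gave 0 to 1 calls for FAD4T against WT averaged, 0 to 2 in 2-month females, 3 to 6 for 8 against 2 months averaged, 0 to 5 in FAD4T males, 0 to 6 in FAD4T females, 0 to 1 for males against females averaged, 5 to 7 at 18 months and 0 to 1 between the 2-month sets. Changes of sign were Tshr for FAD4T against WT (0.02 without WT female of 2 months 2, range -0.24 to 0.02), Gnaq at 8 months without the 6 outlying libraries (-0.01), Gnaq at 18 months against 2-month males 1 to 3 (-0.03), and Tshr between the 2-month sets with the muscle covariate (0.12). With group means subtracted, the uncalled correlations with the parathyroid level turned to -0.36 for Tshr, -0.41 for Gnaq, -0.43 for Adcy3, -0.40 for Adcy9 and -0.18 for Prkar1a. The cause was not tested.

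Same-numbered libraries of the FAD4T set did not deviate together (median r 0.0372 over 84 pairs, -0.0203 over 168 pairs of other numbers). With the replicate block, 3 genes were called at 8 against 2 months averaged, 1 in FAD4T females and 0 in the other comparisons. No paired analysis was possible in the ageing set because its groups share no numbers.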
